A study of Mus musculus with 2 samples.

Results

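The genes described here encode the machinery with which a macrophage detects microbial molecules and cell damage and turns that signal into transcription: Toll-like receptors (TLRs), NOD-like receptors and inflammasomes, their adaptors and kinases, and the NF-kB transcription factors with their inhibitors. The 42 members were taken by gene symbol from a table of 38293 genes, and all 42 had a row and a level above the minimum set for a measured gene, a mean of at least 20 normalised reads. They were measured by messenger RNA sequencing in lung resident macrophages of 8-week-old C57BL/6 mice, 7 days after 625 third-stage larvae of the roundworm Nippostrongylus brasiliensis had been given under the skin. The cells were sorted as CD45+ and Siglec-F+ with high CD11c and low CD11b. There was 1 wild-type (WT) library and 1 library of mice lacking Axl and Mertk (Axl-/-Mertk-/-), receptor kinases that bind apoptotic cells through bridging ligands. Both genotypes were infected, so no uninfected level is given, and the labels do not say how many mice a library holds.

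In the resting cell NF-kB dimers of the subunits encoded by Nfkb1, Nfkb2, Rel, Rela and Relb are held inactive by IkB proteins. TLRs and cytokine receptors recruit adaptors, IRAK kinases and TRAF6, which activate the IkB kinase (IKK), and degradation of IkB then lets NF-kB enter the nucleus. NF-kB induces some of its own inhibitors, among them IkB-alpha (Nfkbia) and the ubiquitin-editing enzyme A20 (Tnfaip3). Alveolar macrophages face inhaled microbes continuously, and Axl and Mertk are known from studies in mice as brakes on TLR signalling in macrophages and dendritic cells.

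Reads assigned to genes numbered 15282882 for WT and 15519680 for Axl-/-Mertk-/-. The values are deposited read counts divided by the authors' size factor of each library, called normalised reads here, and pairs of values are given with WT first. Axl was at 24789.8 and 3851 normalised reads and Mertk at 6484 and 2842, so both targeted genes were lower in the library labelled Axl-/-Mertk-/-, at 15.5% and 43.8% of WT. Which part of either gene was deleted is not stated in the labels. All 12 markers of alveolar macrophages were detected, and all 12 were lower in Axl-/-Mertk-/-, beside 51.2% of all measured genes. With 1 library per genotype no test of the genotypes was possible, no p-value was computed and no difference has a replicate check. Each ratio is Axl-/-Mertk-/- over WT with an exact 95% Clopper-Pearson interval, which covers counting error only.

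The machinery as a whole was at nearly the same level in both libraries. Of the 42 members, 39 lay within 1.2-fold and 0 reached 1.5-fold in either direction. The members at least 1.2-fold lower were Nfkbia and Tnfaip3, and the member at least 1.2-fold higher was Bcl3. Bcl3 lay at the threshold: its ratio was 1.2026 with 10 added to both values and 1.1917, under 1.2-fold, with 50 added. The ratios ran from 0.782 for Nfkbia to 1.21 for Bcl3. In the 11795 measured genes the corresponding shares were 8.5% lower and 8.37% higher, 16.9% in either direction, and 3.07% past 1.5-fold. All members have a mean of at least 100, and at that level 5.63% of genes were lower, 4.76% higher and 10.4% either, with 1.21% past 1.5-fold. In bulk libraries a smaller share of cells that express a gene and less RNA per cell cannot be told apart.

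Smaller differences went both ways. The median log2 ratio of the members was 0.041, beside -0.0047 over all measured genes. There were 29 members with a ratio above 1 and 13 below, where all measured genes split into 48.8% and 51.2%, and genes of at least 100 into 48.1% and 51.9%. The counting interval lay above 1 for 7 members and below 1 for 6, together 31.0% of the members. Of all measured genes 10.1% had an interval above 1 and 11.4% below, 21.5% in sum, and at a level of at least 100 the shares were 10.9%, 13% and 23.8%. The 7 were Tlr2, Tlr8, Unc93b1, Tirap, Aim2, Bcl3 and Tnip1, and the 6 were Tlr7, Irak4, Rela, Nfkbia, Nfkbiz and Tnfaip3. These calls compare the libraries and not the genotypes.

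**Figure D1:**
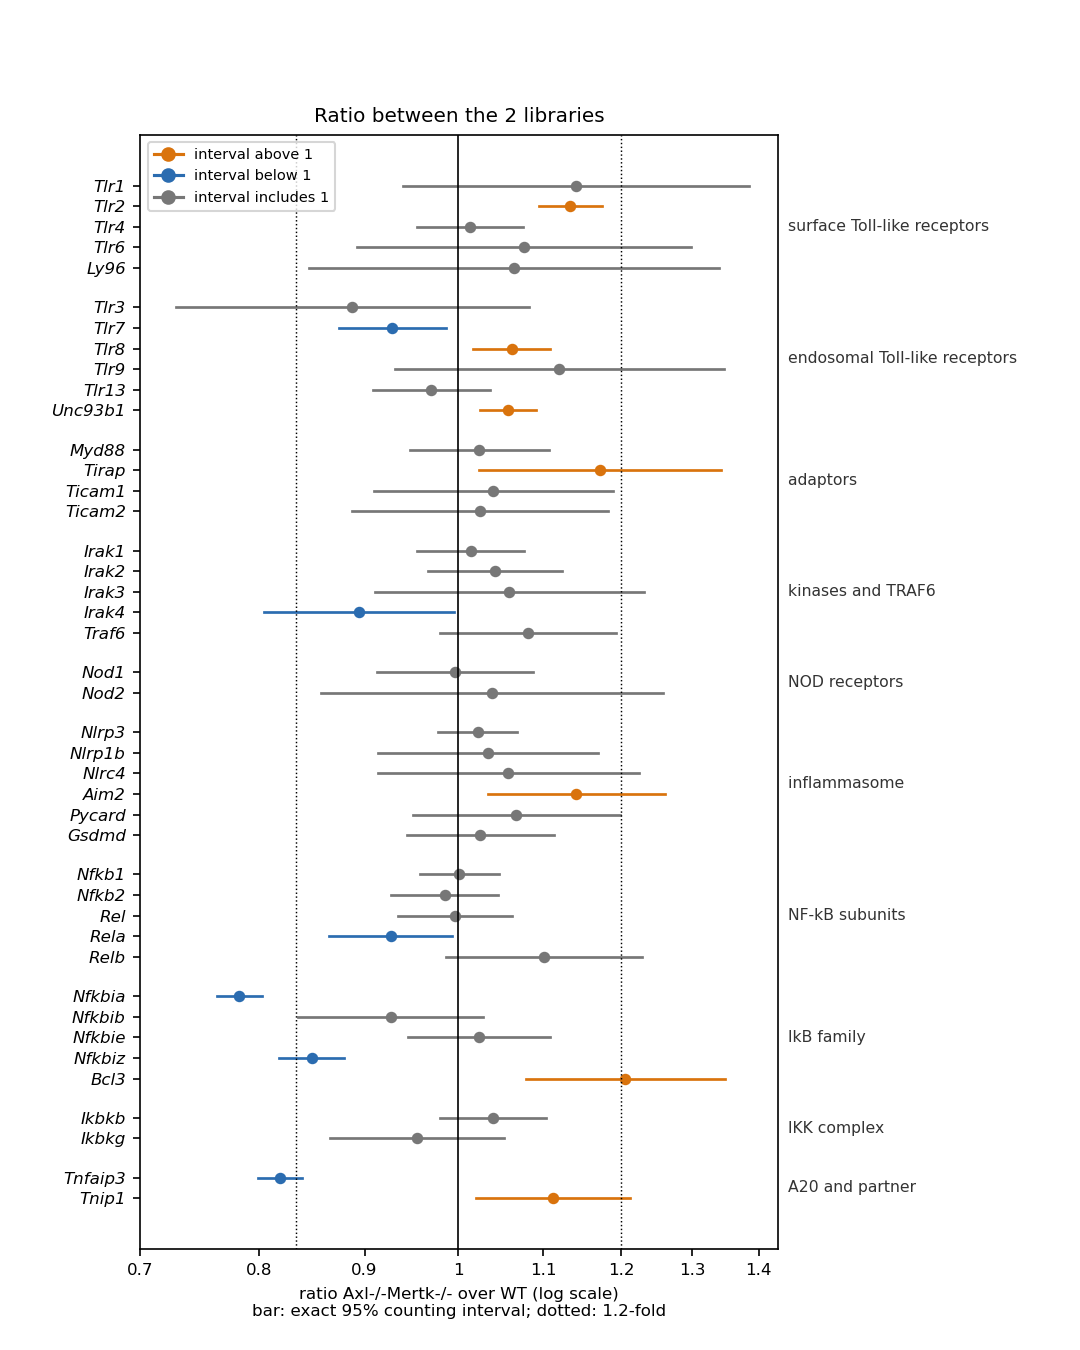
Ratio of each member, Axl-/-Mertk-/- over WT, on a log axis, grouped by role, with 1 library per genotype. Points are ratios and bars exact 95% counting intervals, coloured by whether the interval lies above 1, below 1 or includes it; Nfkbia (0.782) and Tnfaip3 (0.819) lie below the dotted line of 1.2-fold and Bcl3 (1.21) lies at the upper one, a call that ends with a pseudocount of 50.

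Promoter sequence is shown for members on both sides and for a subunit with an interval that included 1, because Nfkbia and Tnfaip3 are textbook targets of NF-kB itself. The kappaB consensus, in a 10-base form with partly degenerate positions, was searched on both strands in the 250 bases before each RefSeq transcription start (build GRCm38.p6). RefSeq promoters were at hand for 32 members, of which 10 held at least 1 match in any of their windows. That is 31.25% of these members, against 8.233% of all 27025 genes with a promoter. The members were chosen as NF-kB machinery, and genes differ in their number of windows, so these shares are not a test. By interval, 2 of 4 members below 1, 2 of 6 above 1 and 6 of 22 that included 1 had a match, so matches occurred on both sides of 1. Gsdmd, Ikbkb, Ly96, Nfkb1, Nfkbiz, Relb, Ticam2, Tlr4, Tlr7 and Unc93b1 had no promoter entry. The windows run 5′ to 3′ on the gene's strand and end at the base before the start. They are chr12:55492648-55492897 for Nfkbia, chr10:19015411-19015660 for Tnfaip3, chr11:54962941-54963190 for Tnip1 and chr3:83841609-83841858 for Tlr2, all on the minus strand, and chr19:46304487-46304736 on the plus strand for Nfkb2. For a gene with more than 1 window, the window with the most matches is shown. Another window of Tnfaip3 held no match, and other windows of Nfkb2 held matches. Capitals mark matches, and overlapping matches form 1 run.
Nfkbia: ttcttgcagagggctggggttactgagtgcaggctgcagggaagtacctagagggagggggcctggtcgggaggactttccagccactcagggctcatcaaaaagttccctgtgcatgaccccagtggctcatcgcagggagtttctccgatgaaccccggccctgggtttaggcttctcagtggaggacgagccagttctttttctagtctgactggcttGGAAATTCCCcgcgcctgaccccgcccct
Tnfaip3: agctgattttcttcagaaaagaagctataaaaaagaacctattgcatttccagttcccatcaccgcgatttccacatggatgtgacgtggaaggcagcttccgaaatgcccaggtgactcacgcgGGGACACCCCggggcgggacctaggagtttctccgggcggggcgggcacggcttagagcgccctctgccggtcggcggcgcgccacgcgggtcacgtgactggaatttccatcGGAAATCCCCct
Tnip1: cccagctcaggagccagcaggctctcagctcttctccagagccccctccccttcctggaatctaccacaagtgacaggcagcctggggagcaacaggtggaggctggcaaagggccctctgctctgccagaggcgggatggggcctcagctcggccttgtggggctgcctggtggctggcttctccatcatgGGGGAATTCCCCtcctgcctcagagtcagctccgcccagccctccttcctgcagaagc
Tlr2: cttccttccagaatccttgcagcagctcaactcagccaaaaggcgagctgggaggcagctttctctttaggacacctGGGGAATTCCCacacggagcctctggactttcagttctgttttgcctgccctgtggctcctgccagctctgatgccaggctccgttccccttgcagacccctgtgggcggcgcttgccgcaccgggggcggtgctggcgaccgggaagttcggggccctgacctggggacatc
Nfkb2: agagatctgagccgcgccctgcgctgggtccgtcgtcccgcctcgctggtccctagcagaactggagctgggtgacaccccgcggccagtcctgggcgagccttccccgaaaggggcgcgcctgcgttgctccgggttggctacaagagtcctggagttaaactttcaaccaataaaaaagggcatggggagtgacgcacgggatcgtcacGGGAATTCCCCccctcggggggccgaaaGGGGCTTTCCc

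In Nfkbia the match lay 29 to 20 bases before the start. The window shown for Tnfaip3 held a match at 125 to 116 and another at 12 to 3 bases before the start. In Tnip1 and Tlr2, both higher in Axl-/-Mertk-/-, and in Nfkb2, matches shifted by 1 base overlapped each other. A match is a description of letters and does not show that NF-kB was bound.

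The sum over the members held opposite parts. The 42 members together were at 110074 and 104751 normalised reads, a pooled ratio of 0.952 (0.943 to 0.9605). Nfkbia, Tnfaip3 and Nfkbiz, grouped after their values had been seen, gave 36.9% of the members' level in WT and 31.4% in Axl-/-Mertk-/-. Their own sum was 40598 and 32884, and that of the other 39 members 69476 and 71867.

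Among the receptors on the cell surface, the 4 TLRs and their partner Ly96 all had ratios above 1, beside 48.8% of all measured genes. The interval included 1 for 4 of these 5. Tlr2, which senses bacterial lipoproteins as a dimer with TLR1 or TLR6 (GRCm38 chromosome 3, 83836272 to 83841767), was at 7014 normalised reads in the WT library and 7950.1 in the Axl-/-Mertk-/- library, the higher value (1.13, 1.09 to 1.17). Its partners were much lower in level per kilobase and their intervals included 1, with Tlr1 at 240.2 and 274 (ratio 1.14, 0.939 to 1.39) and Tlr6 at 266 and 286 (1.08, 0.893 to 1.297). Tlr1 and Tlr6 transcripts are 94.9% identical over 1076 bases, so the split of reads between them is uncertain. Tlr4, the receptor for lipopolysaccharide, was at 2638 and 2672 (1.01, 0.955 to 1.07). Ly96 encodes MD-2, the subunit that binds lipopolysaccharide for TLR4. It was the member with the fewest reads, at 179 and 190.0 normalised reads, and its interval of 0.846 to 1.34 was the widest of all members.

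Reads of Tlr2 were also set against those of Tlr4 within each library, a comparison from which the size factor cancels. There were 2.66 reads of Tlr2 per read of Tlr4 in WT and 2.97 in Axl-/-Mertk-/-, with a quotient of 1.12, 1.04 to 1.199 (exact conditional 95% interval). The pair was chosen after its values had been seen, and its quotient restates the ratios of both genes.

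The TLRs of endosomes, which sense nucleic acids, differed in direction. Tlr8 (chromosome X, 167242696 to 167264329) had the most reads of them, at 4905 and 5206 normalised reads, with the higher value in Axl-/-Mertk-/- (1.06, 1.02 to 1.11). Tlr7, a sensor of single-stranded RNA encoded on the same chromosome at 167304929 to 167330558, was at 2690.1 and 2498, with the lower value in Axl-/-Mertk-/- (0.929, 0.874 to 0.986). Reads of Tlr8 per read of Tlr7 were 1.82 in WT and 2.08 in Axl-/-Mertk-/-, a pair likewise chosen after its values had been seen. Tlr13, a mouse sensor of bacterial ribosomal RNA, was at 2229 and 2163, with an interval of 0.909 to 1.04 that included 1. The sensor of double-stranded RNA, Tlr3, was at 262 and 233, and the sensor of unmethylated CpG DNA, Tlr9, at 267 and 299. Neither could be told from a ratio of 1 at this depth, with intervals of 0.728 to 1.08 and 0.931 to 1.35. Unc93b1, the chaperone that carries these receptors to endosomes, was at 8926 and 9437 normalised reads, slightly higher in Axl-/-Mertk-/- (1.06, 1.02 to 1.09).

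Per kilobase of merged exon, the scale on which genes can be compared with each other, the members spanned a 197-fold range in WT. Nfkbia was highest, at 9913 and 7754 normalised reads per kilobase. Unc93b1 followed at 2945 and 3114, then Tnfaip3 at 2353 and 1927, Tlr2 at 2327 and 2638 and Nfkbiz at 1521 and 1290.3. At the bottom in both libraries were Tlr3 (50.3 and 44.7), Nod2 (51.3 and 53.2) and Tlr6 (71.2 and 76.6). The order was close to the same in both: 25 members kept their rank and no rank moved by more than 2 places. Tlr2 stood below Tnfaip3 in WT and above it in Axl-/-Mertk-/-. Merged exons of all annotated transcripts served as length, which understates genes with long minor transcripts such as Ikbkb.

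**Figure D2:**
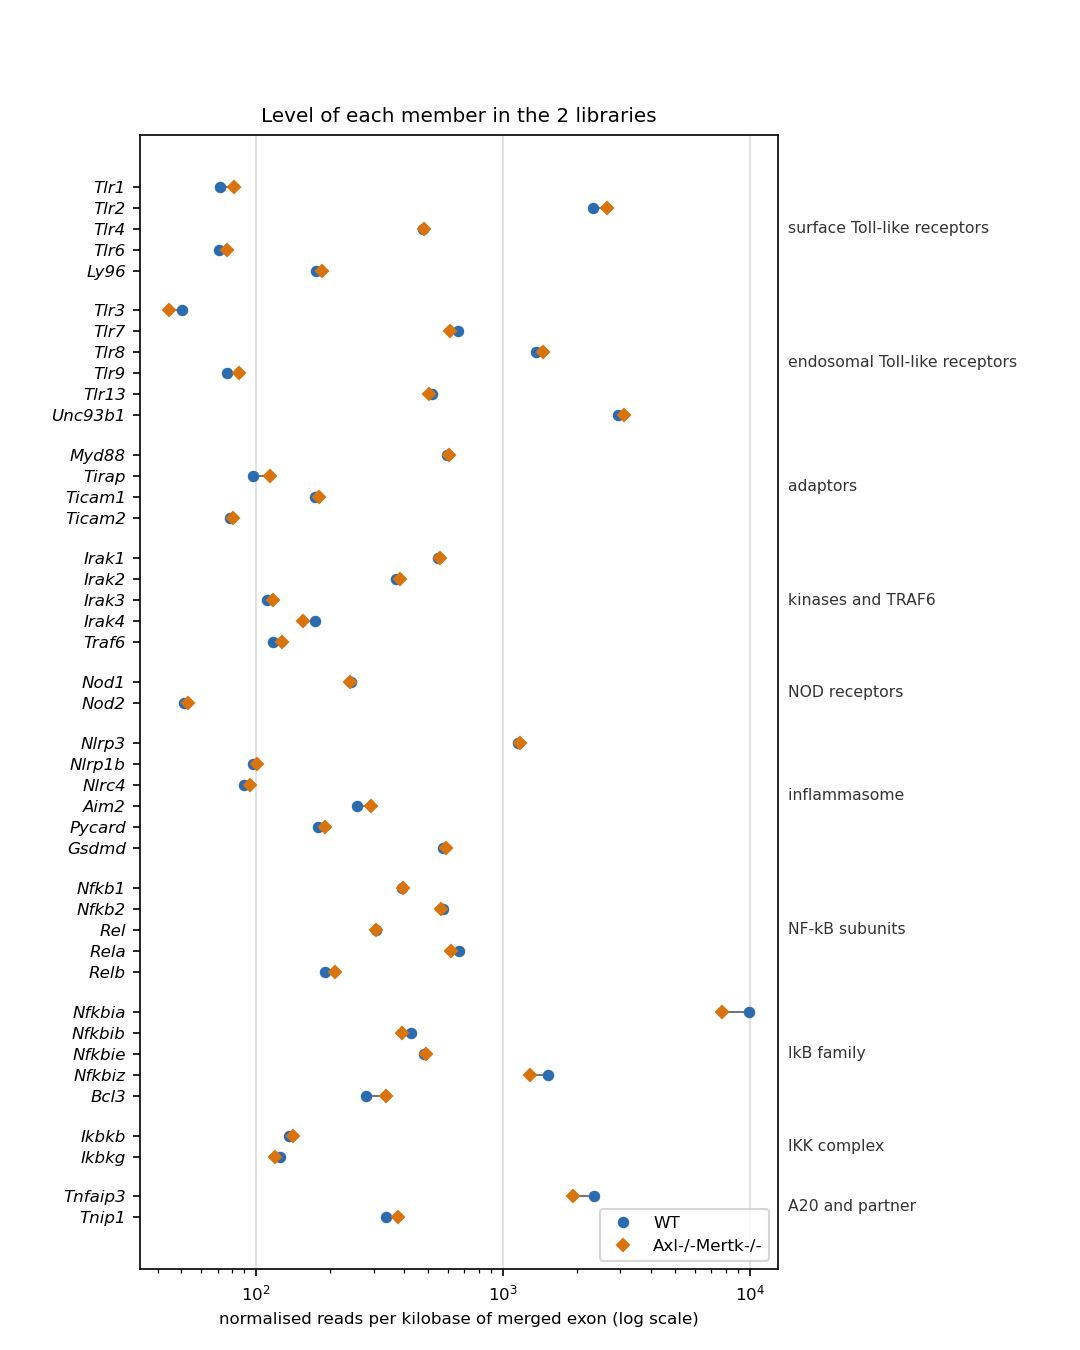
Normalised reads per kilobase of merged exon of each member on a log axis, with a circle for the WT library and a diamond for the Axl-/-Mertk-/- library, grouped by role. The symbols nearly coincide for most members, and Nfkbia is highest in both (9913 and 7754).

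The 4 adaptors all had ratios above 1, beside 48.8% of all measured genes, and the interval included 1 for 3 of them. Myd88, used by nearly all TLRs and by the interleukin-1 receptor, was at 1528 and 1564 normalised reads (1.02, 0.947 to 1.11). Tirap, which bridges TLR2 and TLR4 to MyD88, was at 482 and 564, higher in Axl-/-Mertk-/- (1.17, 1.02 to 1.34). Ticam1 (TRIF) and Ticam2 (TRAM) serve the route from TLR3 and TLR4 to interferon. Ticam1 was at 518 and 538 and Ticam2 at 456 and 467, with intervals that included 1. Ticam2 shares 838 exon bases with Tmed7 on the same strand, so its reads are uncertain.

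Of the kinases and the ubiquitin ligase downstream of MyD88, Irak4 was the one whose interval excluded 1. Irak4, the kinase that MyD88 recruits, was at 875 and 783 normalised reads, the lower value in Axl-/-Mertk-/- (0.894, 0.804 to 0.995). With median-of-ratios factors or scaling to total reads its interval included 1, with upper bounds of 1.006 and 1.0019. Its exons overlap those of Twf1 on the opposite strand over 395 bases, and Twf1 was at 1120.0 and 1112. Irak1, its partner kinase, was at 2589.9 and 2625 (1.01, 0.955 to 1.08) and Irak2, a kinase of late TLR signalling, at 1628 and 1696 (1.04, 0.967 to 1.12). Irak3 encodes IRAK-M, an inhibitor of TLR signalling, and was at 409 and 433 (1.06, 0.911 to 1.23). Traf6, the ligase that activates IKK, was at 929 and 1005 (1.08, 0.979 to 1.19). Irak2 has a near copy of 645 bases in the annotated gene Gm7229, which makes its reads uncertain.

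The cytosolic NOD receptors, which sense bacterial cell wall peptides, both had intervals that included 1. Nod1 was at 1229 and 1224 normalised reads (0.996, 0.913 to 1.09). Nod2 was at 257 and 267 (1.04, 0.857 to 1.26).

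The 6 inflammasome genes all had ratios above 1, beside 48.8% of all measured genes. The interval included 1 for 5 of them, and Aim2 was the one whose interval excluded 1. Aim2, a sensor of cytosolic DNA (chromosome 1, 173350879 to 173466040), was at 897 and 1023 normalised reads (1.14, 1.03 to 1.26). It has a near copy over 607 bases in the annotated gene Gm7871 (94.2% identity), so its reads are uncertain. Nlrp3, a sensor of membrane damage and potassium loss, had the most reads of the group at 4663 and 4764, and its interval of 0.977 to 1.07 included 1. Nlrp1b, which senses anthrax lethal factor in some mouse strains, was at 617 and 637. Nlrc4, which senses flagellin and secretion needles through NAIP proteins, was at 432 and 457. Both had intervals that included 1, 0.914 to 1.17 and 0.913 to 1.22. The adaptor ASC (Pycard) was at 679 and 725 (1.07, 0.9499 to 1.198) and the pore former Gsdmd at 1367 and 1401 (1.02, 0.944 to 1.11).

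The NF-kB subunits lay close to 1. Nfkb1, which encodes p105 and p50, was at 4734 and 4739 normalised reads (1.001, 0.958 to 1.05), Rel at 2300.2 and 2291 (0.996, 0.935 to 1.06) and Nfkb2 at 2620.1 and 2580.4 (0.985, 0.928 to 1.05). Rela, the transactivating subunit p65, was at 2044 and 1895, lower in Axl-/-Mertk-/- (0.927, 0.865 to 0.993), but its interval included 1 with median-of-ratios factors (0.874 to 1.0035). Relb, the partner of p52 in the non-canonical pathway, was at 742 and 817 (1.101, 0.986 to 1.23). Of the IKK complex, Ikbkb, a catalytic subunit, was at 2589.9 and 2693 (1.04, 0.9797 to 1.103) and the scaffold Ikbkg (NEMO) at 1014 and 968 (0.955, 0.866 to 1.05). The other catalytic subunit, Chuk, is not a member and was named after its values had been seen. It was at 1227 and 1169 (0.952, 0.871 to 1.04).

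The IkB family genes and Tnfaip3 held the widest differences among the members, and they differed in direction. Nfkbia (chromosome 12, 55489410 to 55492647) was at 15960.5 normalised reads in the WT library and 12484 in the other (0.782, 0.762 to 0.803), the lowest ratio of the 42. Tnfaip3 (chromosome 10, 19000910 to 19015657), which edits ubiquitin chains on signalling proteins upstream of IKK, was at 17006 and 13925.5 (0.819, 0.799 to 0.839). Nfkbiz (chromosome 16, 55811375 to 55838899) encodes IkB-zeta, a nuclear IkB protein that co-activates secondary response genes in mouse macrophages, and was at 7632 and 6475 (0.848, 0.818 to 0.8797). The values of these genes in Axl-/-Mertk-/- were thus all below WT with narrow intervals. IkB-beta (Nfkbib) was at 918 and 851 (0.927, 0.836 to 1.03) and IkB-epsilon (Nfkbie) at 1457 and 1491 (1.02, 0.945 to 1.11), both with intervals that included 1.

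The balance of reads between IkB family genes and subunits, or within the IkB family, follows from these ratios and adds no separate evidence. There were 3.37 reads of Nfkbia per read of Nfkb1 in WT and 2.63 in Axl-/-Mertk-/-, a quotient of 0.781, 0.742 to 0.822. Per read of Rela there were 7.81 and 6.59 (0.844, 0.784 to 0.909). Per read of Nfkbie there were 10.96 and 8.37 (0.764, 0.703 to 0.831). Reads of Nfkbiz per read of Nfkb1 were 1.61 and 1.37 (0.847, 0.8002 to 0.898). These pairs were chosen after their values had been seen, and reads per read do not correct for gene length.

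Bcl3 and Tnip1 lay on the other side. Bcl3, a nuclear IkB protein that binds p50 and p52 dimers (chromosome 7, 19808462 to 19822770), was at 690.3 and 832 normalised reads, the highest ratio of the members (1.21, 1.08 to 1.35). Tnip1, which encodes the A20-binding protein ABIN1, was at 1195 and 1328 (1.11, 1.02 to 1.21). Reads of Tnfaip3 per read of Tnip1 were 14.2 and 10.5 (0.737, 0.673 to 0.806), a pair chosen with both ratios known, which fix its direction. Bcl3, Relb and Nfkbib are the members within 20 Mb of a targeted gene, at 5.93, 6.13 and 2.97 Mb from Axl. Of 327 measured genes that near Axl, 10.1% were past 1.2-fold upward and 8.26% downward, and the part of this position in the ratio of Bcl3 was not tested.

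**Figure D3:**
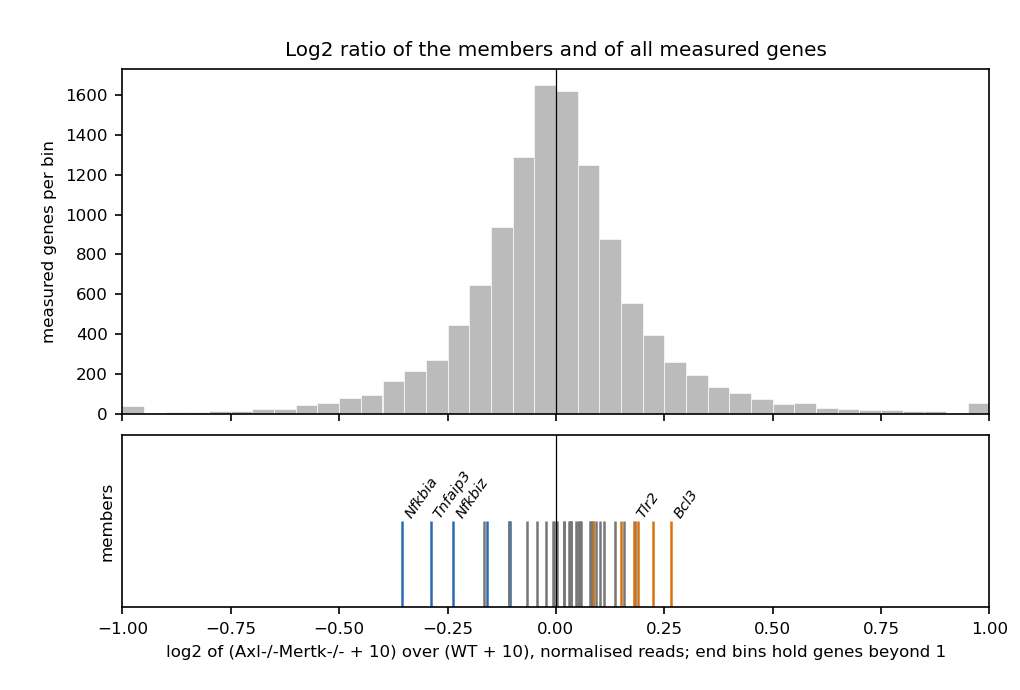
Histogram of the log2 ratio of all 11795 measured genes (upper panel, with 10 added to both values) and the 42 members as lines on the same axis (lower panel), orange where the counting interval lies above 1, blue where it lies below and grey otherwise. Nfkbia, Tnfaip3 and Nfkbiz lie to the left of the other members, and most members lie near the centre of the histogram.

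Other genes of the pathway were described from lists chosen by function, with earlier results of these data known. Partners of the sensors had ratios above 1 for 7 of 9 genes, with a median log2 ratio of 0.20. The interval was above 1 for 5, among them Tlr12, and below 1 for 1. Over all measured genes 48.8% had ratios above 1, and intervals lay above 1 for 10.1% and below 1 for 11.4%. Cd14, which passes lipopolysaccharide to TLR4 and MD-2, was at 14684 and 17260.2 normalised reads (1.18, 1.15 to 1.204). Cd36, a scavenger receptor that assists TLR2, was at 17002 and 14662, lower in Axl-/-Mertk-/- (0.862, 0.842 to 0.883). Ly86 encodes MD-1, the partner of the TLR4-like receptor CD180, and was at 1479.6 and 1702 (1.15, 1.07 to 1.24). Cd180 itself, named after its values had been seen, was at 807 and 917 (1.14, 1.02 to 1.26).

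Genes between the adaptors and IKK, a list that also holds the IKK subunit Chuk, were mostly near 1. Of 21 measured genes 14 had ratios above 1 and 7 below, with a median log2 ratio of 0.013. The interval was above 1 for 3 and below 1 for 0. The shares over all measured genes were 48.8% above and 51.2% below by ratio, and 10.1% and 11.4% by interval. The most abundant were Tab2, an adaptor of the kinase TAK1, at 1926 and 2016 normalised reads, the inhibitor Tollip at 1891 and 1909, and Ube2n, which builds the chains that activate IKK, at 1709 and 1747. The gene of this list past 1.2-fold was Peli2, a ubiquitin ligase acting on IRAK proteins, at 566 and 733 (1.295, 1.15 to 1.46). Peli2 was named after its values had been seen.

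Partners and products of inflammasomes did not lean to one side by ratio, with 11 of 21 measured genes above 1 and a median log2 ratio of 0.0052. Intervals lay above 1 for 3 and below 1 for 5. The shares over all measured genes were 48.8% above 1 by ratio, and 10.1% above and 11.4% below by interval. Il1b, whose precursor caspase-1 matures, was the most abundant at 13969 and 14019.9 normalised reads (1.004, 0.978 to 1.03), and lies 0.562 Mb from Mertk. The receptor antagonist Il1rn was at 7132 and 7277 (1.02, 0.984 to 1.06), and Txnip, an NLRP3 partner, at 4125 and 4626 (1.12, 1.07 to 1.17). Il18, the other cytokine that caspase-1 matures, was at 874 and 735 (0.842, 0.755 to 0.938), and Casp1 itself at 1039 and 1019 (0.9804, 0.891 to 1.08). Il18 and Casp1 were named with their values known.

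Of 16 genes listed as other negative regulators of NF-kB, 11 had ratios below 1 and 0 were past 1.2-fold. The median log2 ratio was -0.025. The list also holds Rnf31, Rbck1 and Sharpin, whose products promote NF-kB activation, so these counts are not of inhibitors alone. Their ratios were 0.907, 1.05 and 0.995, with intervals that included 1, and were in view when these genes were picked out. Over all measured genes 51.2% had ratios below 1, and 16.9% were past 1.2-fold in either direction. Dusp1, a phosphatase of MAP kinases, was at 16449 and 15093 normalised reads (0.918, 0.896 to 0.940). Socs3, an inhibitor of cytokine signalling, was at 5666 and 6135 (1.08, 1.04 to 1.13), and Zc3h12a, which encodes the ribonuclease regnase-1, at 4166 and 4195 (1.01, 0.961 to 1.06). Nfkbid, an IkB family gene outside the members and within 20 Mb of Axl, was named after its values had been seen, at 3433 and 2975 (0.866, 0.821 to 0.914). The deubiquitinase genes Cyld and Otulin, also named afterwards, were at 1208 and 1171 and at 630.0 and 617, with intervals that included 1.

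Of 34 measured target genes of NF-kB, 21 had ratios below 1 and 13 above, with a median log2 ratio of -0.043. The interval was below 1 for 12 and above 1 for 5, where 11.4% and 10.1% of all measured genes were. Of all measured genes 51.2% had ratios below 1. Past 1.5-fold were 4 lower and 2 higher genes, where 1.33% and 1.74% of all measured genes were. The lower ones were the chemokine genes Ccl4 (1278 and 709 normalised reads), Cxcl10 (1051 and 614) and Ccl2 (988 and 636), and Nos2 (226 and 131), the inducible nitric oxide synthase. The higher ones, Lcn2 and Saa3, were named with their values known and had few reads, at 26.6 and 63.7 and at 22.9 and 53.1. Tnf, the cytokine that both activates and is induced by NF-kB, was at 6062 and 4155 (0.685, 0.656 to 0.716), and the neutrophil chemokine gene Cxcl1 at 3955 and 2792 (0.706, 0.669 to 0.744). Ptgs2 and Ier3, also targets, had ratios of 1.13 and 1.14, and all 4 of these genes were named with their values known. The most abundant targets were nearer 1, with Junb at 29617 and 29938 and Cxcl2 at 23849.7 and 21504 (0.902, 0.884 to 0.920), followed by Il1b. Lower Nfkbia, Tnfaip3 and Nfkbiz, which are not in these counts, thus stood beside targets on both sides of 1, 21 below and 13 above.

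**Figure D4:**
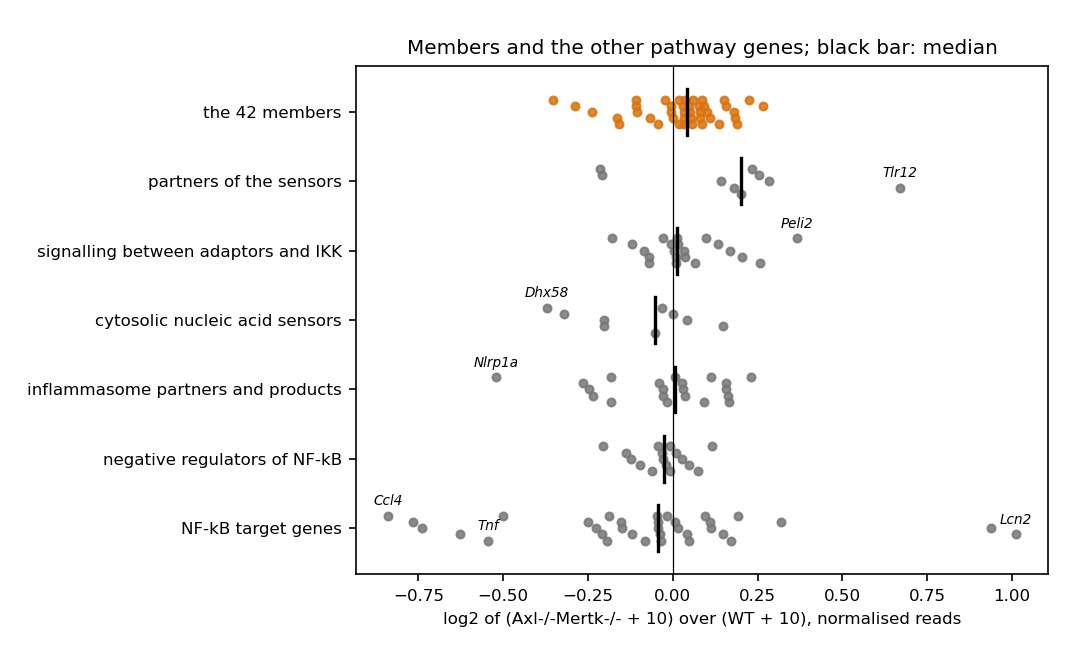
Log2 ratio (10 added to both values) of the 42 members and of the measured genes in 6 other lists of the pathway, each point a gene and each black bar a median. The members span a narrower range than the NF-kB target genes, which run from Ccl4 (-0.84) to Lcn2 (1.01).

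Markers of cell types also differed between the libraries. For comparison, 48.8% of all measured genes had ratios above 1, with intervals above 1 for 10.1% and below 1 for 11.4%. Past 1.5-fold were 1.74% of them upward and 1.33% downward. Of the 12 alveolar macrophage markers 11 had an interval below 1, with a median log2 ratio of -0.20 and summed levels of about 1313650 and 1137150 normalised reads, most of it Chil3. The ratios of the 12 ran from 0.764 for Fabp4 to 0.977 for Itgax, and the 0.782 of Nfkbia lay near the lower end of that range. Of 10 markers of monocytes and interstitial macrophages 8 were above 1, with summed levels of 20823 and 23392. The most abundant were C1qa (ratio 1.099), Ccr2 (1.27) and Itgam (0.988). Past 1.5-fold were the higher Ly6c2 (2.24), Plac8 (2.06) and Cx3cr1 (1.72) and the lower Folr2 (0.492, 0.3796 to 0.633). Neutrophil markers summed to 5034 and 5641 with 6 of 8 measured ones above 1 and intervals above 1 for 5. S100a9 was at 135 and 264 (1.96, 1.55 to 2.48), and Mmp9, Csf3r, Retnlg and Trem1 had ratios of 1.47, 1.37, 1.301 and 1.08. Of the others Cxcr2 had a ratio of 0.834, and Ly6g and Camp were each at 0 and 1 read. Endothelial markers were above 1 for 6 of 6, past 1.5-fold for 5, and summed to 737 and 1078, with a median log2 ratio of 0.87. Pecam1, at 507 and 570.1, made up most of that sum, and the other 5 summed to 231 and 508, a ratio of 2.202. B cell markers summed to 450.2 and 405, dendritic cell markers to 5659 and 5363, and T and NK cell markers to 2029.9 and 2249.9. Mgl2, at 4114 and 3664, made up most of the dendritic cell sum, while 5 of 7 measured dendritic cell markers were above 1. Il7r, at 1889 and 2082, made up most of the T and NK cell sum. Eosinophil markers summed to 82.1 and 76.7 and epithelial markers to 3319 and 2815. Scgb1a1, at 2964 and 2432, made up most of the epithelial sum, and 2 of 4 measured epithelial markers were above 1. The part of other cells in the members' ratios was not tested.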

How the data were processed

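Sorted lung macrophages of infected WT and Axl-/-Mertk-/- mice gave 1 library each, made strand-specific from oligo-dT-selected RNA, per the labels' protocols. The deposited signal is a read count divided by a size factor, with TopHat2, DESeq2 and GRCm38 named in the submitters' processing notes. The counter, its strand setting and tool versions are not given in sources used here, so 13 members whose exons overlap another gene are less certain. All values (100%) were whole multiples of 1 read within a tolerance of 1e-06, which recovered the reads and size factors of 0.829 and 0.847. One read counts as 1.207 in WT and as 1.18 in Axl-/-Mertk-/-, and members had 148 to 14091 reads.

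A quasi-likelihood fit needs replicates, so none was made. Ratios were given with exact intervals, and calls by size, from log2 values with 10 added, at 1.2-fold and 1.5-fold, among the 11795 genes with a mean of at least 20. On the recovered reads 1196 genes had an interval above 1 and 1344 below. Reads carry no molecular identifiers, so intervals may be too narrow. The members and lists were chosen with earlier results of these data known. Every member was named, and from each other pathway list the 3 most abundant genes and those with a mean of at least 100 past 1.5-fold. Names outside this rule are said to be so, except among cell markers.

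Positions and exon lengths came from GENCODE (GRCm38), promoters from RefSeq, and near copies from BLAST+ 2.17.0 at 90% identity over at least 500 bases. On simulated reads for 11795 genes the interval excluded 1 for 62% of genes changed 1.2-fold and 4.53% of unchanged ones. These reads were drawn with counting error only. Differences between mice, sorts and library preparations were not simulated, so 4.53% is not an error rate for comparing the genotypes. Python 3.11.15, numpy 2.4.6, pandas 2.3.3, SciPy 1.17.1, matplotlib 3.10.9 and, for TMM factors, edgeR 4.0.16 were used.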

Additional observations from a re-analysis of the deposited data

How the results depend on the processing

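With 1 library per genotype no value shows how far mice of 1 genotype differ. No paired analysis was possible because each genotype has 1 library and no result comes from a test, and for the same reason no replicate could be left out. The 3 other scalings (median-of-ratios factors, total reads and TMM factors) moved the whole table by at most 0.016 on the log2 scale. Under these and pseudocounts of 1 and 50, all 210 recomputed member ratios stayed within their counting intervals. That says little, because the largest scaling shift was 1.011-fold and the narrowest member interval spanned 1.0503-fold. The number of members at least 1.2-fold higher was 1 (Bcl3). It became 0 with a pseudocount of 50, and 0 when the members near Axl were left out. Members at least 1.2-fold lower numbered 2 under every alternative run. The median log2 ratio ran from 0.034 to 0.056. Members with an interval below 1 numbered 4 with median-of-ratios factors (without Irak4 and Rela) and 5 with total reads (without Irak4), against 6. Members above 1 numbered 31 under both of these scalings and 28 with TMM factors, against 29. Depth limits the members of few reads: for Ly96 the upper bound was 1.58 times the lower, for Tnfaip3 1.0503 times.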

Other observations

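Sensors of nucleic acid in the cytosol signal mainly to interferon and are not among the members. They were listed together with the adaptors Mavs and Tmem173 and the ligase Trim25, and the list had values on both sides of WT. Of 9 measured genes 6 had ratios below 1 and 3 above, the median log2 ratio was -0.053, and the interval was below 1 for 5 and above 1 for 1. Over all measured genes 51.2% had ratios below 1, and intervals lay below 1 for 11.4% and above 1 for 10.1%. Trim25, a ligase that activates RIG-I and the most abundant of the list, was at 7025 and 6771 normalised reads, WT first (0.964, 0.929 to 0.9998). The DNA-sensing adaptor STING (Tmem173) was at 1709 and 1896 (1.11, 1.03 to 1.19), and the RNA-sensor adaptor Mavs, 2.43 Mb from Mertk, was at 1291 and 1291. Dhx58, which encodes the RIG-I-like protein LGP2, was at 392 and 301 (0.767, 0.649 to 0.907). The RNA sensors RIG-I (Ddx58) and MDA5 (Ifih1) were at 828 and 718 and at 949.8 and 824, each with an interval below 1. The DNA sensor cGAS (Mb21d1) was at 287 and 228 (0.793, 0.653 to 0.963), opposite in direction to Tmem173. Dhx58, Ddx58, Ifih1, Mb21d1 and Zbp1 were chosen for naming with their values known.

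Nlrp1a and Nlrp1b, paralogs of the same inflammasome sensor family, had different ratios. Nlrp1a was at 211 and 144 normalised reads (0.682, 0.537 to 0.864) and Nlrp1b at 617 and 637 (1.03, 0.914 to 1.17). Tlr12, which in mice senses the parasite protein profilin, was at 67.6 and 113 (1.68, 1.19 to 2.37), and its partner Tlr11 at 45.9 and 56.7 (1.24, 0.7905 to 1.94). Nlrp1a, Tlr12 and Tlr11 were likewise chosen with their values known.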
